A study of Homo sapiens with 3 samples.

Results

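ETS1 peaks that flank promoters were examined in SCC25, an established human line of tongue squamous carcinoma cells. A peak was taken as flanking if its midpoint lay more than 500 and at most 1500 bp from the nearest transcription start site (TSS) of any transcript in GENCODE release 44 on the hg19 build. This rule found 2293 of the 26958 peaks on chromosomes 1 to 22 and X, a share of 8.51% (95% Wilson interval 8.18 to 8.84), of which 970 lay upstream and 1323 downstream of their TSS by the strand of its transcript. A further 11684 peaks had their midpoint within 500 bp of a TSS and are called core promoter peaks here, and 12981 lay more than 1500 bp from any TSS and are called distal. ETS1 ChIP-Seq of untreated cells comprised 3 samples, of which C20 was the antibody against ETS1 in 2 and 501A in 1. They had been reduced to 1 consensus list of positions by IDR, a procedure that retains peaks ranked alike in different samples. That list holds no read counts, score or summit and no value per sample, so the antibodies could not be compared, no spread between replicates exists, and every interval given here covers the counting of peaks alone. All values describe 1 cell line in 1 condition.

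ETS factors bind DNA through a winged helix domain at sites built around a GGAA core, and ETS1 can bind next to AP-1, the dimer of FOS and JUN proteins. The core promoter is the sequence around the TSS on which the transcription machinery assembles, whereas the sequence beside it can act as a proximal enhancer, which holds further binding sites and contacts the promoter over a short distance. Many mammalian promoters lie in CpG islands, stretches rich in C and G in which CpG pairs were not lost to methylation.

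The sequences below show what lies under the midpoint of narrow flanking peaks at genes of the pathways described further on. They are reference sequence of hg19, 200 bases on the plus strand, with every ETS core (AGGAAG or AGGAAA or CGGAAG or CGGAAA on either strand) and every AP-1 motif (TGANTCA on either strand) in capitals. LAMC1, TEAD4 and LAMA3 had the most ETS cores among upstream peaks of at most 1000 bp at the listed genes, SLC2A1, PDPN and VGLL4 among downstream ones, and ANGPTL4 and KRT8 had both motifs in 1 window. LAMC1 and LAMA3 encode laminin chains of the basement membrane. TEAD4 is a DNA-binding partner of YAP1, and VGLL4 competes with YAP1 for TEAD factors. SLC2A1 encodes the glucose transporter GLUT1, PDPN a membrane glycoprotein of invading carcinoma cells, ANGPTL4 a secreted inhibitor of lipoprotein lipase that responds to hypoxia, and KRT8 a keratin of simple epithelia. The windows are chr1:182991645-182991844 for LAMC1, chr12:3067859-3068058 for TEAD4, chr18:21451449-21451648 for LAMA3, chr1:43422944-43423143 for SLC2A1, chr1:13912571-13912770 for PDPN, chr3:11684300-11684499 for VGLL4, chr19:8426935-8427134 for ANGPTL4 and chr12:53321133-53321332 for KRT8.
LAMC1: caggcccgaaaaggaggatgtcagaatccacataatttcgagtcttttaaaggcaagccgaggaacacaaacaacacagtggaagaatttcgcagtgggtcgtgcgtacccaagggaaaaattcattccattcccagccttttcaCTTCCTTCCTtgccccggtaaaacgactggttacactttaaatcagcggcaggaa
TEAD4: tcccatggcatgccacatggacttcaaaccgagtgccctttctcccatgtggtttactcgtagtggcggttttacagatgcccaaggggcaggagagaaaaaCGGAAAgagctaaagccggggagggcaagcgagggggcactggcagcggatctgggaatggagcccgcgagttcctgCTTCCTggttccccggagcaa
LAMA3: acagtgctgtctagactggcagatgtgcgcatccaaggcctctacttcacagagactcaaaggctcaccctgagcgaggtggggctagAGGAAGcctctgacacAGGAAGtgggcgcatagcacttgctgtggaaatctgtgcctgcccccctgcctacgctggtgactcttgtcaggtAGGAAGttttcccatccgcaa
SLC2A1: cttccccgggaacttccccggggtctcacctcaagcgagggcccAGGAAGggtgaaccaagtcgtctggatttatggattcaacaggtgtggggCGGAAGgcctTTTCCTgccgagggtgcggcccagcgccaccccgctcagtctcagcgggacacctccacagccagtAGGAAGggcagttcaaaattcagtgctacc
PDPN: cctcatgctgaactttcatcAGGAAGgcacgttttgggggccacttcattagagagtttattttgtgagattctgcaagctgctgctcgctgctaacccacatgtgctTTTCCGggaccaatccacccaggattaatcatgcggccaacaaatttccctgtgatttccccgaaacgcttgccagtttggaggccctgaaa
VGLL4: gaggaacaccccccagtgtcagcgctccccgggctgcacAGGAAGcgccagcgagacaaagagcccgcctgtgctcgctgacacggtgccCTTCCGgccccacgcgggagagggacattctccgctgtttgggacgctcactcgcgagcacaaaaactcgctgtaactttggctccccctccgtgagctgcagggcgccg
ANGPTL4: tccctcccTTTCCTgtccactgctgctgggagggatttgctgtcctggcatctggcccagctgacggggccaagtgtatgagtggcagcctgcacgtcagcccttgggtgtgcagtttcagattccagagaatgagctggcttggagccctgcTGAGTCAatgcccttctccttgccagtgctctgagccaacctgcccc
KRT8: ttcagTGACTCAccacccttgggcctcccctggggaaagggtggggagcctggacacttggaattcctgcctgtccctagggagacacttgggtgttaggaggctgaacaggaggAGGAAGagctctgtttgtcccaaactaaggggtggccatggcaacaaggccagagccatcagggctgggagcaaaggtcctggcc

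The SLC2A1 window, 1301 bp downstream of its TSS in the first intron, held 4 ETS cores, and that peak was 419 bp wide. The LAMA3 window held 3 cores, and its midpoint lay in a coding exon 1435 bp upstream of an alternative TSS far inside the gene. The LAMC1 window lay in intergenic sequence 810 bp upstream of the canonical TSS, and its 2 cores overlapped. In ANGPTL4 the ETS core and the AP-1 motif stood far apart in the window, 1138 bp upstream of an alternative TSS. In KRT8 they stood 980 bp upstream of an alternative TSS. Across all 2293 flanking peaks, 54.7% of windows (52.7 to 56.8) held at least 1 ETS core, 19.4% at least 2 and 4.88% at least 3.

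The first question was how the peaks are spread over the flank. Their median distance from the TSS was 837 bp (interquartile range 640 to 1137), and they became fewer with distance on both sides. Because annotated genes leave unequal numbers of bases on the 2 sides, counts were set against the bases that meet the same distance rule, which were 88.2 Mb upstream and 93.7 Mb downstream. Between 500 and 750 bp there were 16.0 peaks per Mb upstream and 21.5 downstream. These fell to 10.2 and 14.0 between 750 and 1000 bp, to 8.6 and 9.97 between 1000 and 1250 bp, and to 8.46 and 10 between 1250 and 1500 bp. For comparison, the first 250 bp held 133 peaks per Mb upstream and 164 downstream, and the stretch from 3000 to 5000 bp held 7.78 and 7.49. Upstream, the density beyond 1000 bp was thus close to that of the more distant sequence, and downstream it stayed above it, with 6.95 per Mb between 4000 and 5000 bp.

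**Figure D1:**
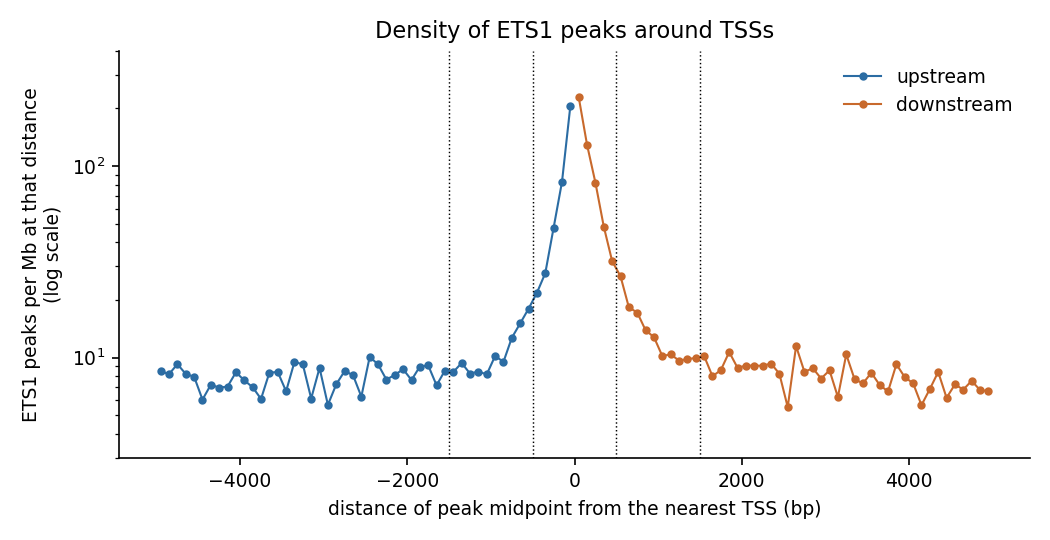
ETS1 peaks per Mb of sequence at each distance from the nearest TSS, in steps of 100 bp up to 5000 bp, on a log axis, upstream in blue and downstream in orange, with dotted lines at 500 and 1500 bp. Density falls from both sides of the TSS. From about 1000 bp on it is near its more distant level upstream. Downstream it stays above that level past 1500 bp, with 8.9 peaks per Mb between 1500 and 3000 bp and 7.49 between 3000 and 5000 bp.

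Flanking peaks lay more often downstream. Upstream peaks made up 42.3% of them (40.3 to 44.3), while 48.5% of eligible bases lie upstream (two-sided exact binomial test, p = 2.84e-09). The difference was larger among wide peaks that run across the TSS. A total of 767 flanking peaks, 33.4% (31.5 to 35.4), covered the TSS itself, and of these 251 were upstream and 516 downstream. Covering was more frequent among downstream peaks, at 39.0% against 25.9% of upstream ones (two-sided Fisher exact test, odds ratio 0.546, p = 4.1e-11). Among the other 1526 peaks, 719 were upstream and 807 downstream, an upstream share of 47.1% (44.6 to 49.6) that did not differ from the share of bases (exact p = 0.282). With peaks of at most 1000 bp alone the upstream share was 48.4% (exact p = 0.928), and with distances taken from the nearest edge of the peak it was 46.2% (p = 0.0831). Altogether 63.5% of flanking peaks had an edge within 500 bp of the TSS.

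Peak width was the only measure of size in the list. Flanking peaks were 220 to 13094 bp wide with a median of 1055 (interquartile range 614 to 1885), between core promoter peaks, with a median of 1262, and distal peaks, with a median of 706. Covering peaks had a median width of 2281 bp and a median midpoint distance of 644 bp, and the others 755 bp and 976 bp, a contrast that the definition sets, since a flanking peak can reach across its TSS only if it is wider than 1000 bp. Of flanking peaks 53.9% (51.9 to 56.0) were wider than the median of the list, against 71.1% of core promoter peaks (Fisher exact test, odds ratio 0.475, p = 4.1e-56) and 30.3% of distal peaks.

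**Figure D2:**
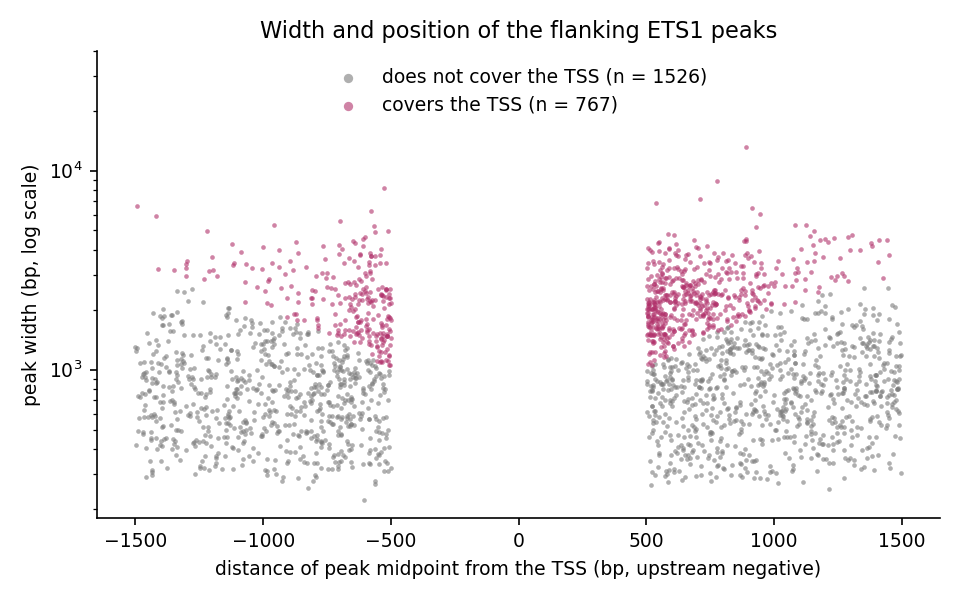
Width of each flanking peak in bp, on a log axis, against the distance of its midpoint from the nearest TSS, with upstream distances negative. The 767 peaks that cover the TSS (magenta) are the wide ones and crowd towards the inner limit of 500 bp, most of all downstream, whereas the 1526 others (grey) fill the whole range of distances.

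The 10 widest members, 5 on each side, all covered their TSS. The widest of all, 13094 bp, lay over the start of PLEC, which encodes plectin, the linker between intermediate filaments and hemidesmosomes, and another of 7181 bp lay over another TSS of the same gene. LTBP4, which encodes a latent TGF-beta binding protein, had a peak of 8898 bp, MIR23AHG, the host gene of a miRNA cluster, one of 6488 bp and ENSG00000257341 one of 6910 bp, all 3 with midpoints downstream. On the upstream side these were MRGPRF-AS1 with 8135 bp, LAMA5, a laminin chain, with 6619 bp, CCND1, the gene of cyclin D1, with 6277 bp, LY6D, a surface protein of keratinocytes, with 5910 bp and LFNG, a glycosyltransferase that modifies Notch, with 5594 bp. For CCND1 and LFNG the nearest TSS was an alternative one inside the gene. Their midpoints lay 1979 and 3118 bp downstream of the canonical TSS. At the limits of the rule, ZNF697 and ENSG00000270792 had midpoints at 500 bp and were left out, and USP42 and ENSG00000289903 came in at 501 bp. At the outer limit, ENSG00000287575 and DPPA3P7 were members at 1500 and 1499 bp, and TXNP1 and ENSG00000231102 at 1501 bp were not.

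The sequence at the midpoint changed across the flank. A window of 200 bp was called CpG-rich if its GC content was at least 50% and its ratio of observed to expected CpG at least 0.6. This held for 27.1% of flanking peaks (25.3 to 28.9), for 75.7% of core promoter peaks (74.9 to 76.5) and for 7.42% of distal peaks (6.98 to 7.88), with an odds ratio of 0.119 against core promoter peaks. The share fell with distance, from 32.6% upstream and 42.1% downstream between 500 and 750 bp to 14.5% and 16.0% between 1250 and 1500 bp. Downstream peaks were CpG-rich more often, at 30.5% against 22.4% of upstream ones (Fisher exact test, odds ratio 0.656, p = 1.46e-05). Without the covering peaks these shares were 19.6% and 16.8% (odds ratio 0.831, exact p = 0.185), so this difference too was not detectable without them. At 1000 bp from the canonical TSS of all protein-coding genes, 14.6% of downstream and 11.4% of upstream windows were CpG-rich.

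**Figure D3:**
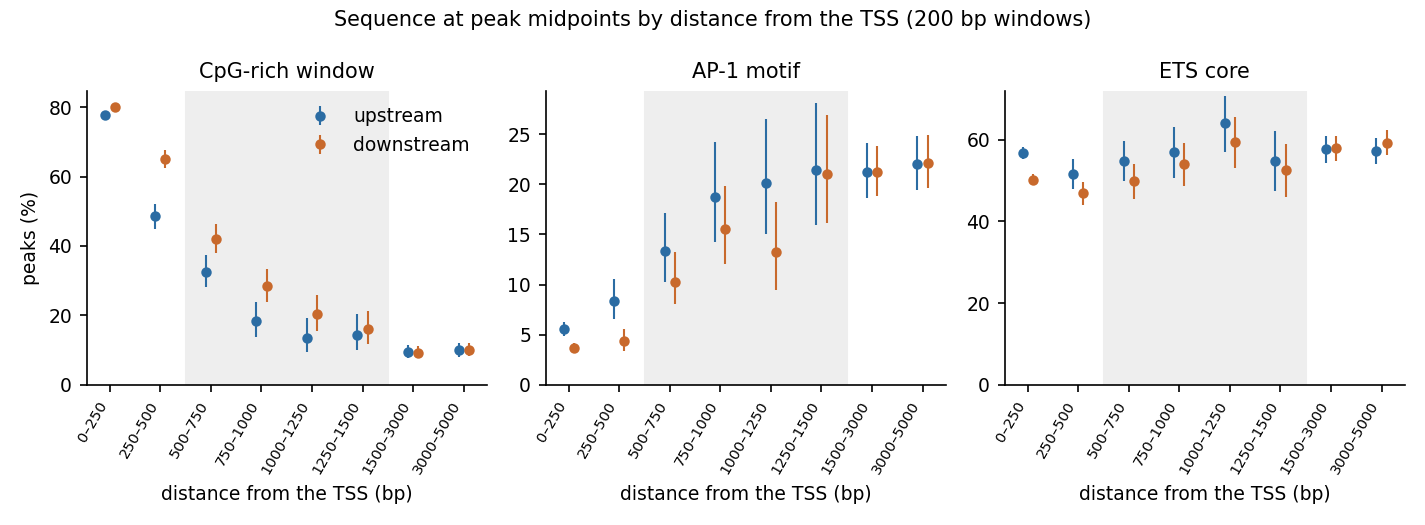
Share of peaks in percent, with 95% Wilson intervals, whose 200 bp window at the midpoint was CpG-rich (left) or held an AP-1 motif (middle) or an ETS core (right), by distance from the TSS in bp, upstream in blue and downstream in orange; grey marks the flank. Across it the CpG-rich share falls from 32.6% upstream and 42.1% downstream to 14.5% and 16.0%, and the AP-1 share rises from 13.3% and 10.3% to 21.4% and 21%.

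The TSSs beside these peaks were of 2 sorts. Where the peak covered its TSS, the 200 bp around that TSS were CpG-rich in 61.1% of cases (57.7 to 64.5), against 38.0% of all 219838 annotated TSS positions. Where it did not, only 23.3% (21.3 to 25.5) of TSSs were CpG-rich. Within covering peaks the TSS was CpG-rich more often than the midpoint of the same peak, at 61.1% against 44.6% (exact McNemar test, 186 against 59 discordant peaks, adjusted p = 8.34e-16). The SP/KLF motif GGGCGG was likewise more frequent at the TSS than at the midpoint, 53.7% against 36.9% (adjusted exact p = 1.1e-12). For the ETS core no difference was detectable between the 2 points, 45.9% and 46.5% (adjusted exact p = 1.0), and the midpoint of so wide a peak need not be where ETS1 was bound.

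To ask which motifs mark the occupied side of a promoter, each window was paired with the mirror window, at the same distance on the opposite side of the same TSS. Pairs were used where the mirror window overlapped no peak, which left 1668 and dropped 625, and 12 motifs were tested over all pairs and on each side with the exact McNemar test and Benjamini-Hochberg adjustment over 36 tests. The ETS core was present in 56.1% of peak windows and 41.3% of mirror windows, with 570 pairs holding it at the peak alone and 323 at the mirror alone (ratio 1.76, adjusted exact p = 7.1e-16). The longer ETS motif CCGGAAG was found in 3.78% and 1.2% (ratio 3.39, adjusted exact p = 3.52e-06). At 1000 bp from the canonical TSS of all protein-coding genes, 41.1% of upstream and 44.2% of downstream windows held an ETS core, close to the mirror windows. Hence the shorter core was common at promoters with or without a peak, and the excess at peaks was moderate.

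Over all pairs, AP-1 had the highest ratio of discordant pairs of the 12 motifs, whereas in percentage points the ETS core moved more. TGANTCA was present in 17.6% of peak windows and 4.74% of mirror windows, in 280 pairs at the peak alone and in 65 at the mirror alone (ratio 4.31, adjusted exact p = 2.28e-31). On the upstream side the shares were 18.5% and 4.56%, on the downstream side 16.9% and 4.87%, and in the flanks of all protein-coding genes 4.98% and 4.8%. Peak windows had a mean GC content of 58.4% and mirror windows of 50.2%. In the 496 pairs within 5 percentage points of each other in GC content, a restriction chosen after these values had been seen, AP-1 was still at 17.9% and 4.84% (ratio 4.61, adjusted exact p = 1.49e-10) and the ETS core at 56.7% and 40.7% (ratio 1.87, adjusted p = 2.77e-06).

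Of the remaining motifs that passed the threshold, GGGCGG was found in 21.5% of peak and 10.1% of mirror windows (ratio 2.72, adjusted exact p = 2.94e-20). CCAAT, the motif of the trimeric factor NFY, was the only one of the motifs past the threshold that was less frequent at peaks, 14.7% against 21.5% (ratio 0.638, adjusted exact p = 2.18e-06), and GGAATG, that of TEAD factors, was at 13.8% against 10.6% (ratio 1.35, adjusted p = 0.0111). In 1227 pairs in which neither window was CpG-rich, also chosen after these values had been seen, all 3 passed, with ratios of 2.21 for GGGCGG (adjusted exact p = 3.34e-07), 0.701 for CCAAT (adjusted exact p = 0.00105) and 1.72 for GGAATG (adjusted exact p = 3.55e-05). In the 496 pairs alike in GC content they did not pass, with 15.5% and 11.5% for GGGCGG (adjusted exact p = 0.0826), 16.7% and 18.8% for CCAAT (adjusted p = 0.491) and 13.1% and 10.1% for GGAATG (adjusted p = 0.191). CCGGAAG was at 3.34% and 1.06% in the former pairs (ratio 3.33, adjusted exact p = 0.000219) and at 2.82% and 2.02% in the latter (ratio 1.44, adjusted exact p = 0.523). The latter pairs are the fewer, and the part of base composition in these 4 results was not tested further. The bare GGAA, which occurs in most windows of this length, was at 90.8% against 82.3% (adjusted exact p = 2.06e-12). RUNX (TGTGGT or TGCGGT), YY1 (AAGATGG), NRF1 (GCGCATGC), CREB (TGACGTCA) and the E-box CACGTG did not pass over all pairs, and of these RUNX had 17.5% and 16.2% (adjusted exact p = 0.517). Every CCGGAAG contains the ETS core CGGAAG. The TEAD motif GGAATG also holds GGAA, but the base after it differs, so it cannot share a GGAA with an ETS core.

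**Figure D4:**
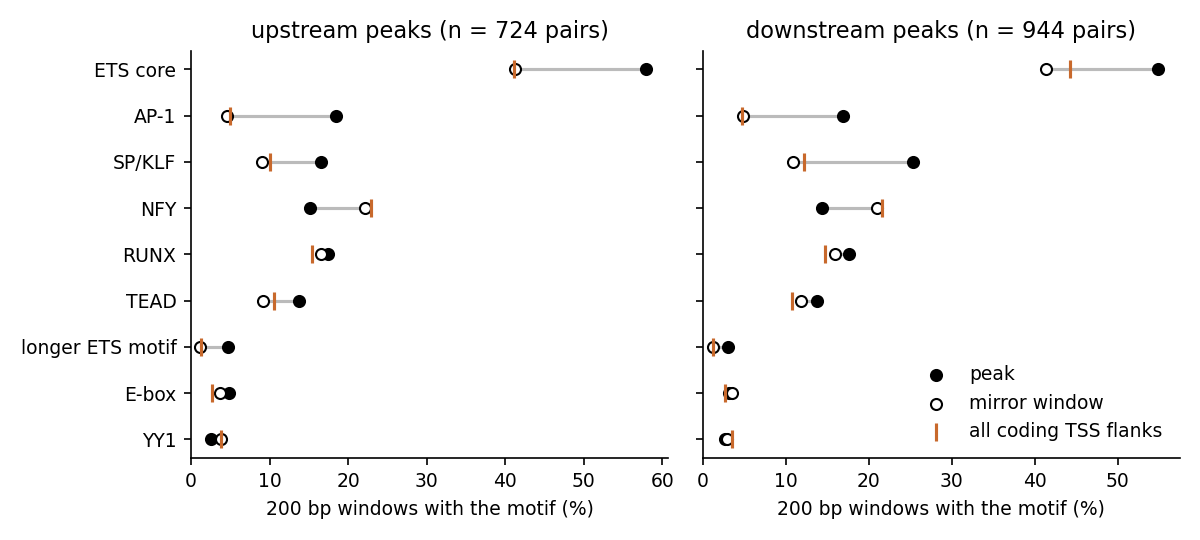
Share of 200 bp windows in percent that hold each of 9 motifs, for upstream (left) and downstream (right) flanking peaks as filled circles and for their mirror windows as open circles; orange ticks give the share at 1000 bp from the canonical TSS of all protein-coding genes. AP-1 moves from 4.56% to 18.5% upstream and from 4.87% to 16.9% downstream, the ETS core from 41.2% to 57.9% and from 41.4% to 54.8%, and NFY lies to the left of its mirror on both sides.

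The 2 kinds of flanking peak differed in motifs at the midpoint as well. In all, 15.4% of flanking peaks held an AP-1 motif, against 4.69% of core promoter peaks (Fisher exact test, odds ratio 3.69, p = 1.19e-64) and 24.4% of distal peaks (odds ratio 0.563, adjusted p = 6.42e-22). Covering peaks, however, stood at 4.69% (36 of 767, 3.41 to 6.43), no different from core promoter peaks beyond counting error (4.32 to 5.09, odds ratio 1.0, adjusted exact p = 1.0), although covering and core peaks were compared at midpoints that differ in distance. Both shares were also near the 4.74% of mirror windows, which overlap no peak. Covering peaks had a median width of 2281 bp, so a 200 bp window at the midpoint can miss the bound site. The peaks that did not cover the TSS stood at 20.7% (18.7 to 22.8), and distal peaks between 1500 and 5000 bp at 21.6% (20.3 to 23, odds ratio 0.946, adjusted exact p = 0.602). The ETS core was in 58.8% of windows of the noncovering peaks and 58.1% of those distal peaks (adjusted exact p = 0.707), and in 46.5% of covering and 52.4% of core promoter windows (odds ratio 0.792, adjusted p = 0.00487). The motif CCGGAAG was less frequent at covering peaks, 3.52%, than at core promoter peaks, 10.6% (odds ratio 0.309, adjusted exact p = 9.92e-12). In CpG content the noncovering peaks stayed apart from the distal peaks between 1500 and 5000 bp, with 18.3% against 9.63% CpG-rich windows (odds ratio 2.1, adjusted exact p = 2.08e-16). GGGCGG was also more frequent, 18.1% against 14.7% (odds ratio 1.28, adjusted exact p = 0.00583). The split of flanking peaks into covering and noncovering for these 20 tests, and the comparison of the TSS with the midpoint inside covering peaks, were chosen after the first values had been seen.

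Between the sides, motifs differed less. The ETS core was in 57.1% of upstream and 53.0% of downstream windows, which missed the threshold (Fisher exact test, odds ratio 1.18, p = 0.0509, adjusted p = 0.153). AP-1 was at 17.3% and 13.9% (adjusted exact p = 0.143), and without covering peaks at 21.1% and 20.3% (odds ratio 1.05, adjusted p = 0.742). GGGCGG was the 1 motif that differed, with 18.9% upstream and 28.4% downstream (odds ratio 0.586, adjusted exact p = 1.56e-06), and among noncovering peaks with 15.0% and 20.8% (odds ratio 0.672, adjusted p = 0.00675). Both an ETS core and an AP-1 motif were present in 217 flanking windows, 9.46%. Windows with an AP-1 motif held an ETS core in 61.6% of cases (56.5 to 66.6) and the others in 53.5% (51.3 to 55.7). These shares pool noncovering peaks with covering ones, which held both motifs less often, and the difference was not tested. The nearest pair of the 2 motifs lay a median of 35 bp apart, at most 10 bp apart in 43 windows (19.8%), and in none of the 217 did they overlap.

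By annotation, the midpoints lay mostly inside transcripts. An intron held 61.6% of them, intergenic sequence 18.0%, a noncoding exon 8.68%, a coding exon 7.2%, and untranslated regions of coding transcripts the rest. Of downstream peaks 59.2% lay in the first intron of the transcript whose TSS was nearest and 14.1% in its first exon. The nearest TSS belonged to a protein-coding gene for 67.5% of peaks, to a long noncoding RNA for 22.2% and to a miRNA precursor, whose annotated start need not be a start of transcription, for 2.27%. It was the canonical TSS of its gene for 36.8% only. Of the peaks beside a protein-coding gene, 54.6% (52.1 to 57.1) lay more than 1500 bp from the canonical TSS, so that a majority of these flank an alternative start, and whether such starts are used in SCC25 was not measured here.

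Flanking peaks stood close to other peaks. The next peak was less than 1000 bp away, edge to edge, for 30.2% of them (28.4 to 32.1), against 10.9% of core promoter peaks (Fisher exact test, odds ratio 3.55, adjusted p = 5.72e-110) and 14.8% of distal peaks (odds ratio 2.5, adjusted p = 2.53e-64). Yet only 11.1% (9.86 to 12.4) had the midpoint of another peak within 500 bp of the same TSS. Of the 1526 noncovering peaks 1275, 83.6%, flanked a TSS with no such midpoint. These counts go by midpoints, so such a TSS may still lie under another wide peak. Of noncovering peaks 45.2% had an edge of their own within 500 bp of the TSS. Flanking peaks stood on both sides of the same TSS at 38 TSSs, 26 of them of protein-coding genes. From midpoint to midpoint, a distance that the rule sets above 1000 bp, the closest such pairs were 1133 bp apart at DRD2, which encodes a dopamine receptor, 1245 bp at NACC2, a BTB domain corepressor, 1365 bp at PLAT, the gene of tissue plasminogen activator, 1372 bp at ENSG00000254639 and 1413 bp at EFNB2, which encodes the ligand ephrin-B2. All 5 of these TSSs were without a core promoter peak, which is a call by midpoint alone. At DRD2, NACC2, ENSG00000254639 and EFNB2 a peak of the pair ran across the TSS, and at PLAT neither peak did. The TSS at PLAT was an alternative one inside the gene. At DRD2 the upstream peak was 1508 bp and the downstream one 545 bp wide, and at EFNB2 they were 910 and 1807 bp wide.

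The 2293 peaks were assigned to 2253 TSSs of 2088 genes. Among 20098 protein-coding genes, 1368 had at least 1 flanking peak, which is 6.81% of them. By side, 3.08% had one upstream and 4.22% downstream, and 4.3% had one that did not cover the TSS. A core promoter peak was present at 53.3% of protein-coding genes. Genes with a flanking peak had one at another or the same TSS in 52.7% of cases and the other genes in 53.3%, with no detectable difference (Fisher exact test, odds ratio 0.976, p = 0.674). Genes differ in their number of annotated TSSs, and within each stratum the share was lower for genes with a flanking peak, 7.55% against 20.3% with 1 TSS (exact p = 0.000712), 33.6% against 45.4% with 2 to 5 (p = 2.17e-06) and 67.8% against 70.9% with more than 5, where the difference missed the threshold (p = 0.0633). Over all genes, without these strata, the direction turned when covering peaks were left out, with 65.4% against 52.7% (exact p = 1.54e-13). It also turned with peaks of at most 1000 bp, 23.6% against 15.6% (exact p = 5.82e-07), where wider core promoter peaks were left out too. The part of the number of TSSs in these 2 values was not tested. A covering peak leaves little room for a core promoter peak at the same TSS, and 3 of the 767 had one.

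Most genes had 1 flanking peak. There were 131 with 2, 20 with 3 and 3 with 4. The last included CACNA1A, which encodes a calcium channel subunit, and MAD1L1, a spindle checkpoint protein. In both genes the peaks lay on both sides, and all lay far inside the gene, 122475 to 293042 bp downstream of the canonical TSS. A flanking peak was more frequent in genes with many TSSs, at 3.27% of genes with 1 TSS, 5.86% of those with 2 to 5 and 8.68% of those with more than 5, and the part of this number in the counts per gene list below was not tested.

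Across 20 lists of genes, 85 genes had 100 flanking peaks, 49 upstream and 51 downstream, of which 43 covered the TSS and 53 lay within 1500 bp of the canonical TSS of their gene. Keratins and desmosome genes, which build the filaments and junctions of epithelia, had the highest share, 9 of 23 (39.1%) against 6.81% of all protein-coding genes. All 9 had an upstream peak, where 3.08% of all genes had one. KRT5, the basal keratin, had a peak of 3415 bp that covered its TSS, with its midpoint 966 bp upstream. Narrower upstream peaks lay at KRT15 (882 bp wide, 878 bp from the TSS), KRT17 (466 bp wide, 1003 bp away), KRT19 (1240 bp wide, 1497 bp away) and KRT6A (484 bp wide, 1439 bp away), 4 keratins of basal or activated keratinocytes and ducts, and each window there held 1 ETS core. KRT17, KRT19 and KRT6A had a core promoter peak at the same TSS, and KRT15 did not. KRT7 had covering peaks at 2 TSSs, 3046 and 2720 bp wide. KRT8 had 3 peaks, among them that of 717 bp printed above. KRT80 and JUP, the gene of the junction protein plakoglobin, had theirs upstream of an alternative TSS, 5175 and 13709 bp downstream of the canonical one.

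In the Notch pathway 7 of 22 genes (31.8%) had a flanking peak, among them the ligand JAG2, the modifier LFNG, the targets HES1, HES2, HEY1 and HEY2, and NRARP, a feedback inhibitor. NRARP, a gene of 1 exon, had peaks on both sides of its TSS, 1911 bp wide at 878 bp upstream and 1404 bp wide at 1026 bp downstream. Of the VEGF and hypoxia genes 6 of 20 (30.0%) had one, and 6 of 20 also had one that did not cover the TSS. The semaphorin and VEGF coreceptors NRP1 and NRP2 had narrow peaks inside the gene, 315 and 395 bp wide, 748 and 665 bp upstream of an alternative TSS, each with 1 ETS core, and that of NRP1 also with an AP-1 motif. SLC2A1 had 3 peaks, with 2, 3 and 4 ETS cores in their windows. VEGFB had a peak of 848 bp 560 bp downstream, with no ETS core.

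The WNT pathway had a flanking peak at 8 of 29 genes (27.6%), 6 of them downstream and 3 with one that did not cover the TSS. The ligands WNT3, WNT7A and WNT10A and the receptors FZD1 and LRP5 all had a covering peak with its midpoint downstream, 1645, 2894, 3845, 2156 and 3514 bp wide, and none of the 5 windows held an ETS core. At WNT3 and WNT10A the TSS was an alternative one, and the midpoints lay 47773 and 13169 bp downstream of the canonical TSS. RNF43, a ubiquitin ligase that removes Frizzled receptors, had 2 narrow peaks of 587 and 253 bp, each upstream of an alternative TSS and each with 1 ETS core. AXIN1, the scaffold of the beta-catenin destruction complex, had one 1481 bp upstream beside a core promoter peak. TCF7, a transcription factor of the pathway, had one of 2044 bp. It lay 1389 bp downstream of an alternative TSS and 10326 bp downstream of the canonical one.

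Among TGF-beta pathway genes 6 of 30 had a flanking peak. The effector SMAD3 had 3 of them at 3 alternative TSSs, 743, 1806 and 1132 bp wide, 10992 to 109317 bp downstream of the canonical TSS. The inhibitory SMAD7 had a peak of 2039 bp at 1139 bp upstream of its canonical TSS. The coreceptor ENG had 1 ETS core and 1 AP-1 motif under a peak of 586 bp, 26259 bp downstream of the canonical TSS. The latency protein LTBP3 and the corepressor TGIF1 had one each, of which that of TGIF1 was 3990 bp wide and covered the TSS. In the cascade from RAS to ERK 6 of 30 genes had one. The list holds feedback inhibitors of the cascade by choice, and of these SPRED1, SPRED2, SPRY4 and the phosphatase DUSP5 had one. The other two genes were those of the adaptor SHC1 and the kinase RPS6KA1. SPRED1 (2351 bp) and SPRED2 (3036 bp) had a covering peak at the canonical TSS, and SPRY4 one of 1023 bp that lay 1435 bp upstream of an alternative TSS. EGFR was the 1 gene of 15 (6.67%) in the list of EGFR family members and ligands, a share near that of all protein-coding genes. Its covering peak was 3138 bp wide, with the midpoint 636 bp downstream in the first intron.

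**Figure D5:**
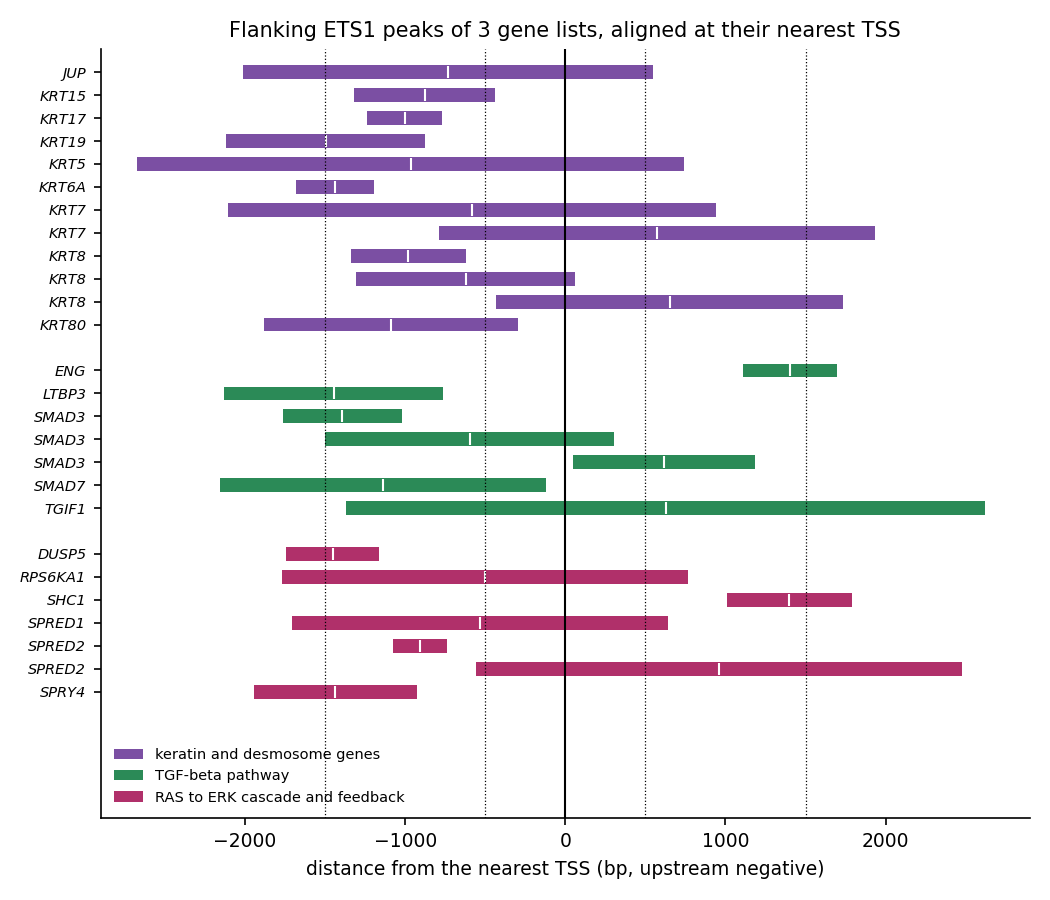
Extent of flanking peaks of the keratin and desmosome list (purple), the TGF-beta pathway (green) and the RAS to ERK cascade (red), aligned at its nearest TSS (0 bp) in the direction of transcription, with the midpoint as a white tick and dotted lines at 500 and 1500 bp. In the keratin and desmosome list 10 of 12 peaks have their midpoint upstream; some bars run across the TSS, and others stop short of it.

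Genes of invasion and of the squamous lineage had shares of 18.2% to 26.3%. Of squamous lineage factors 5 of 19 (26.3%) had a flanking peak, namely SOX2, GRHL2, OVOL1, OVOL2 and RUNX1, and that of SOX2, 1270 bp wide, had its midpoint in the single coding exon 829 bp downstream with 1 ETS core. The flanking peak of RUNX1 had its midpoint 163221 bp downstream of the canonical TSS. Of integrin and laminin genes 5 of 21 (23.8%) had one, where ITGB4, the integrin chain of hemidesmosomes, had a covering peak of 4625 bp and LAMC1 and LAMA3 the narrow ones printed above. Among matrix proteases and plasminogen activators it was 4 of 22 (18.2%). MMP14, the membrane protease that activates MMP2, had a covering peak of 3707 bp, MMP15 a peak on each side, and PLAUR, the urokinase receptor, a peak of 1074 bp with 2 ETS cores and 1 AP-1 motif. At PLAT, the 2 peaks flanked an alternative TSS, 11141 and 12506 bp downstream of the canonical one. The upstream window there held 1 ETS core and 2 AP-1 motifs and the downstream window 1 AP-1 motif. Cell cycle and MYC network genes had 7 of 30 (23.3%), among them CCND1, CCND2 and CCNE1, which encode cyclins, the inhibitors CDKN1A and CDKN1C, E2F3 and MXI1, and the CDKN1A peak of 2502 bp covered the TSS. In the AP-1 family it was 4 of 18 (22.2%), FOSB, JUN, MAF and MAFG, each with its midpoint downstream and none with an AP-1 motif in its window, against 4.22% of all genes with a downstream peak.

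In the other lists the counts were lower. Among EMT effector and adhesion genes 3 of 18 had one (16.7%), namely CTNND1, CLDN4 and PDPN, and 2 of 13 among EMT transcription factors (15.4%), SNAI3 and GSC, both covering. Hippo pathway genes had 4 of 24 (16.7%), LATS2, STK3, TEAD4 and VGLL4, and cytokine and chemokine genes 4 of 25 (16.0%), IL1RN, IL6, IL11 and CSF2. The STK3 peak flanked an alternative TSS far from the canonical one. The IL6 peak was 486 bp wide, 574 bp downstream of an alternative TSS. ETV4 was the only one of 27 ETS factor genes (3.7%), with a peak of 881 bp, 578 bp downstream of an alternative TSS. Genes for basal machinery had few flanking peaks, and core promoter peaks more often than the 53.3% of all protein-coding genes, as did other lists, such as EMT effector and adhesion genes with 88.9% and the AP-1 family, TGF-beta and RAS to ERK lists with 83.3% each. Of 79 cytosolic ribosomal protein genes 1 had a flanking peak (1.27%), RPL41, and 97.5% a core promoter peak. Of 78 mitochondrial ribosomal protein genes 2 had one (2.56%), MRPL36 and MRPL41, with 91.0% at the core promoter, and of 39 proteasome subunit genes none, with 94.9% at the core promoter. Of the 100 peaks of listed genes, 60 had an ETS core and 7 an AP-1 motif in the window. Among all flanking peaks these shares were 54.7% and 15.4%. The TSS was covered by 43 of the 100, and by 33.4% of all flanking peaks.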

How the data were processed

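ETS1 ChIP-Seq was measured in 3 samples of SCC25 cells, with no input file used here. Per the labels and methods, the authors mapped reads to hg19 with Bowtie 1.1.1, keeping reads with a single locus, sorted them with SAMtools 1.3, called peaks with MACS2 and applied IDR to all 3 samples. What they deposited is 1 list of 26970 peak positions with no signal or score, so depth per sample is not in it. The 12 peaks off chromosomes 1 to 22 and X were left out. Reads from repeats are missing by the mapping rule, and midpoints, not summits, place the peaks.

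Distances used 254376 GENCODE 44 transcripts (219838 TSS positions), and sequence came from GRCh37. Motifs were searched on both strands in windows of 200 bp. Tests were two-sided: exact binomial for sides, Fisher exact between sets and exact McNemar within pairs. P-values called adjusted had Benjamini-Hochberg adjustment over their family, and the others are unadjusted. Families included 36 mirror tests, 22 comparisons of other features, 12 motifs per pair of sets and the 20 tests of covering and noncovering peaks. Peaks and genes are not replicates, so p-values measure counting alone. Named were genes of the 20 lists with a flanking peak, the 5 widest peaks on each side, the genes with most peaks, the closest pairs across a TSS and the peaks at the limits of the rule. Some genes that this rule takes in are not reported here. Printed sequences followed a rule on motif counts in peaks of at most 1000 bp, and 5 of 35 candidate windows were passed over for overlap with a UTR. The members and lists were chosen with earlier results of these data known. Alternatives covered TSS sets, peak widths, distance limits, windows, motifs and control windows. The code was tested on simulated data and run with scipy 1.17.1, numpy 2.4.6 and pandas 2.3.3 under Python 3.11.15, while sequences were read through samtools 1.23.1 and pysam 0.24.0 and figures drawn by matplotlib 3.10.9.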

Additional observations from a re-analysis of the deposited data

How the results depend on the processing

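Of 91 values for 12 results under alternatives, 61 stayed in direction and on the same side of the threshold, or within the interval of the value reported. In 5 results this held throughout. These are the ETS core and AP-1 against mirror windows (ratios of 1.67 to 3.39 and of 3.08 to 7.3), AP-1 and CpG content against core promoter peaks, and width, where leaving out covering peaks removes wide peaks by construction. The 4 values for pairs of windows alike in base composition were chosen after seeing the data. The flanking share of 8.51% became 6.56% with TSSs of protein-coding genes only, 7.36% with 1 canonical TSS per gene, 7.56% among the first 13485 peaks of the list, 5.66% without covering peaks, 7.82% for peaks of at most 1000 bp, 5.39% by the nearest edge, and 5.53% and 11.1% with outer limits of 1000 and 2000 bp. In the same order, 7.74%, 6.23%, 3.15%, 4.3%, 3.02%, 4.02%, 4.7% and 8.31% of protein-coding genes had a flanking peak. The share covering the TSS was 40.3% and 49.4% with those TSS sets, 45.1% among the first 13485 peaks and 0.0% for peaks of at most 1000 bp, which cannot reach across by construction. The upstream share of 42.3% lost its difference from the bases without covering peaks (47.1%), for peaks of at most 1000 bp (48.4%) and by the nearest edge (46.2%), and the odds ratio for CpG content between sides lost its call in the first of these (0.831) and the second (0.891). The ETS core passed the threshold between sides with protein-coding TSSs (odds ratio 1.24, exact p = 0.0304) and in 600 bp windows (1.31, p = 0.0387), beside 1.02 to 1.52 over its alternatives. The share of genes with a core promoter peak was 16.3% against 48.9% with 1 canonical TSS per gene, where each gene has only 1 start to hold either. It turned to 65.4% without covering peaks and to 23.6% for peaks of at most 1000 bp, both above the other genes and both without strata by number of TSSs. The other causes were not tested. The order of the list is as deposited and need not follow strength. No replicate could be left out and no paired analysis was possible because the list pools all samples, so agreement between samples, antibodies or depths cannot be judged.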
